A study of Mus musculus with 8 samples.

Results

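The 9 genes described here encode the heme synthesis pathway, namely its enzymes and the carrier that feeds it with iron. They were chosen as the rows of the count table with the symbols Alas2, Alas1, Alad, Uros, Urod, Cpox, Ppox, Fech and Slc25a37, which are 9 of 21878 symbols, and all 9 passed the filter on low counts. RNA was sequenced from the peripheral blood of female C57BL/6 wild-type (WT) mice aged 6 to 8 weeks. In the stress group (n = 4), mice were held for 6 h in a ventilated tube. In the control group (n = 4), littermates stayed in their cage and, like the stressed mice, had neither food nor water, so that the comparison asks what restraint added to fasting. Blood is a mixture of red cells, platelets and leukocytes, and no cell type was sorted before extraction. Each group therefore shows the RNA of that mixture at a single time, in 1 sex and 1 strain. The labels number 4 replicates in each group and do not state that each came from a separate mouse, so the p-values below measure the spread between these libraries.

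Heme is the iron-containing ring that carries oxygen in haemoglobin and electrons in cytochromes. Its synthesis starts in the mitochondrion, where a 5-aminolevulinate synthase joins glycine and succinyl-CoA, then runs through the cytosol and returns to the mitochondrion, where ferrochelatase inserts iron. The first step has a pair of isozymes. Alas2 is the erythroid isozyme, encoded on the X chromosome and known as a target of the transcription factor Gata1, whereas Alas1 is the isozyme of other tissues and is held back by heme itself. Reticulocytes, the youngest red cells in blood, still carry RNA and finish haemoglobin synthesis, while leukocytes make heme only for their own enzymes.

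The stretch just before the transcription start is shown for the isozyme pair, and for the other members with a Gata motif, because Gata1 binds that motif in erythroid genes. RefSeq sequence of build GRCm38.p6 was searched for 7 of the 9 members, in 10 windows of 250 bases before an annotated start. Fech and Slc25a37 were not searched. Each sequence runs 5′ to 3′ along the gene's own strand and ends at the base before the start. The Alas2 window was chrX:150547167-150547416 (plus strand), that of the first Alas1 start chr9:106247955-106248204 (minus strand), that of Cpox chr16:58669958-58670207 (plus strand) and that of the second Uros start chr7:133702501-133702750 (minus strand). The forms searched, on both strands, were AGATAA and AGATAG as well as TGATAA and TGATAG. Capitals mark the matches, which all lay on the opposite strand here and so read as TTATCT in Alas2, for example.
Alas2: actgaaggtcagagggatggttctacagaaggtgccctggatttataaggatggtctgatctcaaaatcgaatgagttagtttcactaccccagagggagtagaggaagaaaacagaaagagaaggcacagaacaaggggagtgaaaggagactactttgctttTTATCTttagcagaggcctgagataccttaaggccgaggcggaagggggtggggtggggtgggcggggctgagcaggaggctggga
Alas1: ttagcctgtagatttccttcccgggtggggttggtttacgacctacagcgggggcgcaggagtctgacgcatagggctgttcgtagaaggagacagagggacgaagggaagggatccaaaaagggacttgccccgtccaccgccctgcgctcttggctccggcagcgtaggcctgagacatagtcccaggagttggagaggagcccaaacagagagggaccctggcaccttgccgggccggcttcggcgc
Cpox: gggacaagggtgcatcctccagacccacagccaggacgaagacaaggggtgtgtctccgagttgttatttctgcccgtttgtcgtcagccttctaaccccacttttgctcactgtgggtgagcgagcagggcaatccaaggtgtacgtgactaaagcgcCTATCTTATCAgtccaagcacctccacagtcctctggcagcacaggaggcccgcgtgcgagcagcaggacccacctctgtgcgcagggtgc
Uros, second start: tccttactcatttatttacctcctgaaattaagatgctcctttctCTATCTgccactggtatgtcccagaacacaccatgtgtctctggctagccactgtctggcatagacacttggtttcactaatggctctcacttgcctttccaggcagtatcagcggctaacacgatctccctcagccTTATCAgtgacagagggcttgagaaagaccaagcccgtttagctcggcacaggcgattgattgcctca
The Alas2 window held 1 match, which began 86 bases before the start. The Cpox window held 2 overlapping matches at 91 and 86 bases, and the second Uros start held 2 at 205 and 68 bases. No match lay in either Alas1 window, in either Alad window, in the first Uros window or in those of Urod and Ppox. Of 32851 windows of the same length over all genes, 26.5% held a match. The Klf1 motif CCACACCC lay in none of the 10 windows and in 3.2% of all windows. Its looser form CCNCNCCC, which contains that motif, lay in 45.9% of all windows. It matched 4 times before Alas2, 4 and 2 times in the Alad windows, 1 and 2 times in the Alas1 windows and 1 time at the first Uros start, and not before the second Uros start, Urod, Cpox or Ppox. The counts are per gene and do not separate the starts of Uros.

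The libraries held 31471145 to 39014775 counts in the control group and 25978683 to 29655725 in the stress group. The 8 haemoglobin genes took 51.9 to 63.8% of the counts in the control libraries and 61.2 to 75.5% in the stress libraries. Values are given as CPM (counts per 1000000 counts of the library) after scaling by the trimmed mean of M-values (TMM), which equalizes the bulk of the genes between libraries. The TMM factors were 1.01 to 1.77 in the control libraries and 0.507 to 1.10 in the stress libraries. This scaling therefore raised CPM against the share of counts in 3 of 4 stress libraries and lowered it in the control libraries, and each member's result below is given on other scales too. Fewer cells of a type and less RNA per cell cannot be told apart in such bulk samples.

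On the TMM scale, the stress group had higher mean levels of the erythroid isozyme Alas2, of the iron carrier Slc25a37, of Urod and of Fech, with log2 fold changes of 0.79 to 0.97, but only Urod passed an adjusted p below 0.05 (edgeR quasi-likelihood test, Benjamini-Hochberg over 11718 tested genes). The other 5 members, Alas1, Alad, Uros, Cpox and Ppox, had log2 fold changes of -0.16 to 0.35 and none passed. Thus 1 of 9 members rose, a share close to the 10.4% of all tested genes that rose, and 0 members fell, against 3.69% of all tested genes. With a stricter call (log2 change over 1 in size, adjusted p under 0.01), 0 members passed in either direction, against 1.69% of genes that rose and 0.0171% that fell. By an unadjusted p below 0.05 there were 4 members higher, against 18.2% of all tested genes, and 0 lower, against 13%. DESeq2 called 2 members higher and 0 lower at an adjusted p below 0.05, against 9.57% higher and 3.74% lower of 15930 genes. The count of members that rose became 2 (Urod and Slc25a37) without control replicate 4 or without stress replicate 4, and 0 without any other single library. The median log2 fold change was 0.35 over the members and -0.02 over all tested genes. The ranges of the control and stress libraries overlapped for all 9 members, whereas 11.1% of tested genes were higher in every stress library and 9.87% lower in every stress library.

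**Figure D1:**
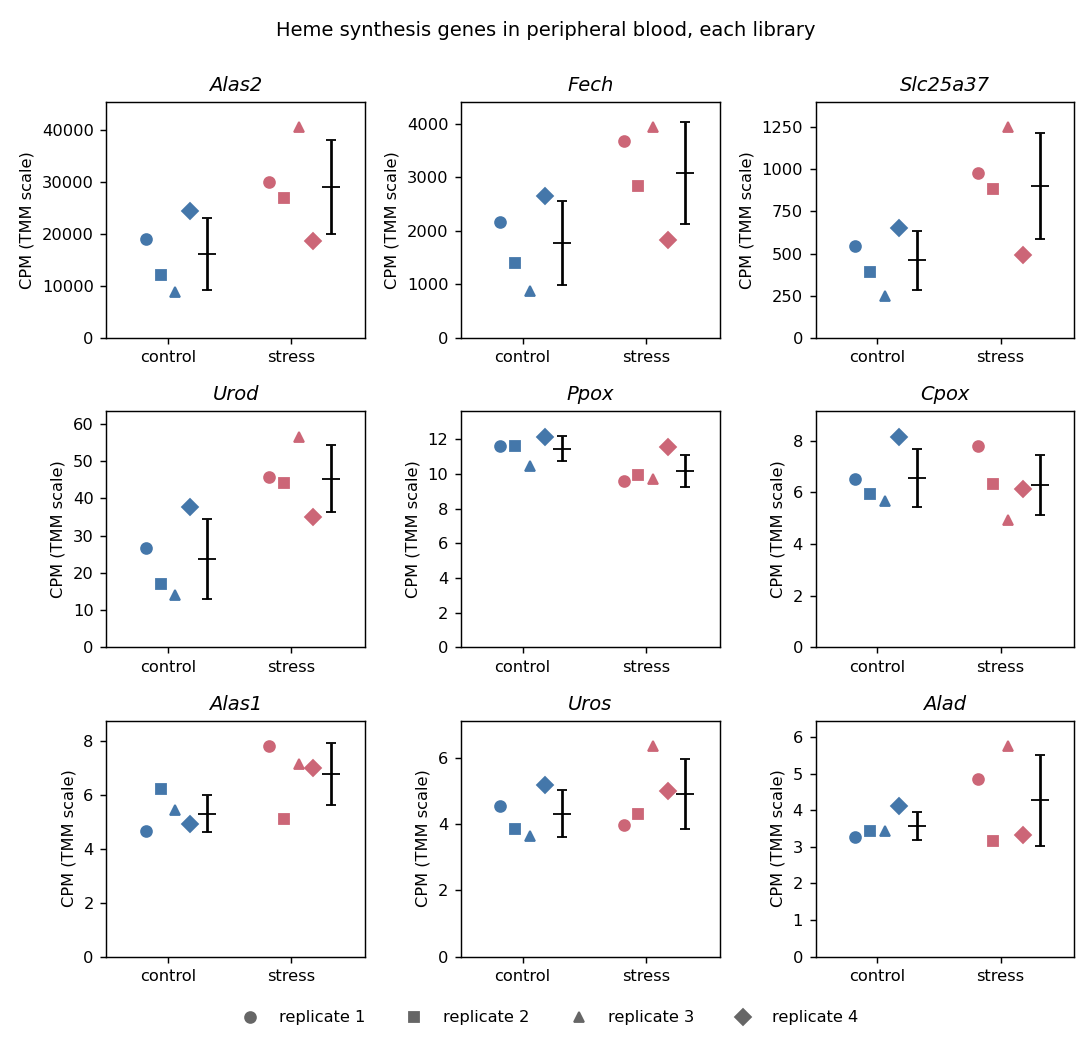
Level of each member in each library, in CPM on the TMM scale (vertical axes, each from 0), for the control and the stress group; symbols mark the replicate number, and the black bar is the mean with its SD (n = 4). In Alas2, Fech, Slc25a37 and Urod, 3 of 4 stress libraries lay above every control library, and stress replicate 4 lay among the controls.

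Iron enters the pathway through Slc25a37 (mitoferrin-1), the carrier of the inner mitochondrial membrane in erythroid cells (chromosome 14:69241848-69285112, minus strand). It stood at 544, 390, 248 and 654 CPM in control replicates 1 to 4 and at 977, 881, 1251 and 493 CPM in stress replicates 1 to 4. Of the stress libraries, 3 of 4 exceeded the highest control and replicate 4 lay between controls. The means were 459 ± 177 and 900 ± 314 CPM (SD, n = 4). The log2 fold change, 0.97 ± 0.32 (SE), missed the threshold (edgeR, adjusted p = 0.0603). DESeq2 put Slc25a37 past it (adjusted p = 0.0122).

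Alas2, which makes 5-aminolevulinate in erythroid cells and limits the rate of the pathway there, lies on chromosome X:150547375-150570638 (plus strand). Its level was 19063, 12141, 8866 and 24362 CPM in control replicates 1 to 4 and 30057, 26871, 40583 and 18593 CPM in stress replicates 1 to 4. The highest control library thus exceeded the lowest stress library. The means were 16108 ± 6953 and 29026 ± 9094 CPM (SD, n = 4), and the log2 fold change of 0.85 ± 0.43 (SE) did not pass (edgeR, adjusted p = 0.197). As a share of all counts, Alas2 took 2.01 ± 0.401% under control conditions and 2.12 ± 0.200% after stress, a difference smaller than the SD of either group. On the opposite strand the exons of Apex2 cover 12.9% of the exon bases of Alas2. The strand setting of the counting is not given in the sources used here, so reads of that stretch cannot be assigned to either gene.

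Alas1, the isozyme of other tissues (chromosome 9:106233455-106248654, minus strand), was counted 156 to 375 times in a control library and 94 to 218 times in a stress library. It stood at 4.65, 6.19, 5.42 and 4.92 CPM in control replicates 1 to 4 and at 7.80, 5.10, 7.13 and 6.98 CPM in stress replicates 1 to 4. Here stress replicate 2, not replicate 4, lay within the control range. The log2 fold change was 0.35 ± 0.16 (SE) and did not pass (edgeR, adjusted p = 0.160).

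Alad, which condenses 2 molecules of 5-aminolevulinate to porphobilinogen (chromosome 4:62509169-62519918, minus strand), stood at 3.29, 3.44, 3.42 and 4.13 CPM in control replicates 1 to 4 and at 4.86, 3.15, 5.77 and 3.33 CPM in stress replicates 1 to 4. The stress libraries were more spread than the controls and lay on both sides of them. The log2 fold change of 0.24 ± 0.20 (SE) did not pass (edgeR, adjusted p = 0.450). Uros, which closes the ring as uroporphyrinogen III (chromosome 7:133686243-133710072, minus strand), stood at 4.56, 3.87, 3.64 and 5.20 CPM in control replicates 1 to 4 and at 3.97, 4.31, 6.38 and 5.02 CPM in stress replicates 1 to 4. For Uros, only stress replicate 3 exceeded the highest control, and the log2 fold change of 0.18 ± 0.18 (SE) did not pass (edgeR, adjusted p = 0.534).

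Urod, which removes the carboxyl groups of the uroporphyrinogen side chains (chromosome 4:116989965-116994413, minus strand), was the member that passed. It stood at 26.7, 16.9, 13.9 and 37.7 CPM in control replicates 1 to 4 and at 45.7, 44.1, 56.6 and 34.9 CPM in stress replicates 1 to 4. Stress replicate 4 lay below control replicate 4, and the other stress libraries lay above every control. The means were 23.8 ± 10.7 and 45.3 ± 8.90 CPM (SD, n = 4), and Urod rose by a log2 fold change of 0.93 ± 0.27 (SE; edgeR, adjusted p = 0.0401). The call was lost without control replicate 1, 2 or 3 and without stress replicate 1, 2 or 3, with an adjusted p between 0.0545 and 0.202. It was also lost with no count filter (adjusted p = 0.149) and with 10 counts asked of all 8 samples (adjusted p = 0.0540), at a similar log2 fold change of 0.94 and 0.93. It held without control replicate 4 (adjusted p = 0.00454) and without stress replicate 4 (adjusted p = 0.0422).

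Cpox, the coproporphyrinogen oxidase of the mitochondrial intermembrane space (chromosome 16:58670292-58717636, plus strand), stood at 6.52, 5.94, 5.65 and 8.17 CPM in control replicates 1 to 4 and at 7.80, 6.31, 4.93 and 6.11 CPM in stress replicates 1 to 4. The groups covered much the same range, and the log2 fold change was -0.05 ± 0.17 (SE; edgeR, adjusted p = 0.882). Ppox, which oxidizes protoporphyrinogen to protoporphyrin (chromosome 1:171275990-171281186, minus strand), stood at 11.6, 11.6, 10.5 and 12.2 CPM in control replicates 1 to 4 and at 9.59, 9.92, 9.72 and 11.6 CPM in stress replicates 1 to 4. For Ppox, 3 of 4 stress libraries lay below the lowest control, with a log2 fold change of -0.16 ± 0.11 (SE; edgeR, adjusted p = 0.343). The exons of B4galt3 on the opposite strand cover 17.5% of the exon bases of Ppox, and those of Gpr15 cover 3.06% of Cpox, so that these counts can include reads of the partner gene.

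Fech (ferrochelatase), which inserts iron into protoporphyrin at the last step (chromosome 18:64452914-64490251, minus strand), stood at 2172, 1402, 878 and 2650 CPM in control replicates 1 to 4 and at 3685, 2837, 3940 and 1829 CPM in stress replicates 1 to 4. From the highest to the lowest CPM, the 8 libraries fell in the same order for Fech as for Alas2 and Slc25a37. Stress replicate 3, with the lowest TMM factor (0.507), came first, and control replicate 3, with the highest (1.77), came last. All genes share these factors, and by share of counts the orders differed. There Alas2 was highest in control replicate 4 (2.45%), and Fech and Slc25a37 in stress replicate 1 (0.295% and 0.0783%). The means were 1775 ± 789 and 3073 ± 954 CPM (SD, n = 4), and the log2 fold change of 0.79 ± 0.36 (SE) did not pass (edgeR, adjusted p = 0.148).

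Since the direction of a difference in blood depends on what each library is scaled to, the members were set against all counts and against red cell transcripts. On total counts the median of all tested genes lay at -0.82 on the log2 scale. There Alas2 lay at 0.07 ± 0.14 (SE), Fech at 0.03 ± 0.20, Slc25a37 at 0.17 ± 0.24 and Urod at 0.19 ± 0.35, and none of these 4 passed. Alas1, Alad and Uros turned to -0.45, -0.58 and -0.59, and Cpox and Ppox fell by 0.79 and 0.92 (edgeR, adjusted p = 0.0495 and 0.0236). That makes 2 of 9 members lower and 0 higher on total counts, where 49.6% of all tested genes were lower and 0.444% higher. As a share of all counts Cpox was lower in every stress library than in any control library, as were 23.5% of tested genes, and no member was higher in every stress library, as were 0.247%.

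The red cell scale divides each library by the geometric mean count of 13 red cell genes, among them Slc4a1 (band 3), the anion exchanger of the red cell membrane. On this scale the median of all tested genes lay at -1.24. Alas2 lay at -0.16 ± 0.37 (SE), Fech at -0.21 ± 0.43, Slc25a37 at -0.07 ± 0.46 and Urod at -0.06 ± 0.51. None of the 4 lay further from 0 than its SE, which this fit takes partly from the spread of other genes. Cpox fell by 1.20 and Ppox by 1.32 (edgeR, adjusted p = 0.0432 and 0.0301), and Alas1, Alad and Uros lay at -0.92, -0.99 and -0.93 without passing. The count of 2 members lower compares with 56.8% of all tested genes lower and 0.0683% higher. With libraries left out, the count of members followed that of all genes. It became 5 without control replicate 4, where 76.1% of all tested genes were lower, and 1 without stress replicate 4, where 53.3% were lower. It became 0 without control replicate 2 or 3 or stress replicate 1, 2 or 3, where between 0 and 9 of all tested genes were lower. Against the haemoglobin genes as the reference, 2 members were lower, with 54.3% of all tested genes lower.

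A change of scale shifts the log2 fold changes of all genes by much the same amount. The distances of the members from the median of all tested genes were therefore bound to be similar on the 3 scales, which lend each other no support. Alas2 lay 0.87, 0.90 and 1.08 above that median on the TMM, total count and red cell scales. Fech lay 0.82, 0.85 and 1.03 above it, Slc25a37 1.00, 0.99 and 1.17, and Urod 0.96, 1.01 and 1.19. These 4 members stood above at least 90.6% of all tested genes on each scale. Alas1 lay 0.37, 0.37 and 0.32 above the median, Alad and Uros between 0.21 and 0.31, and Cpox and Ppox between -0.14 and 0.04.

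**Figure D2:**
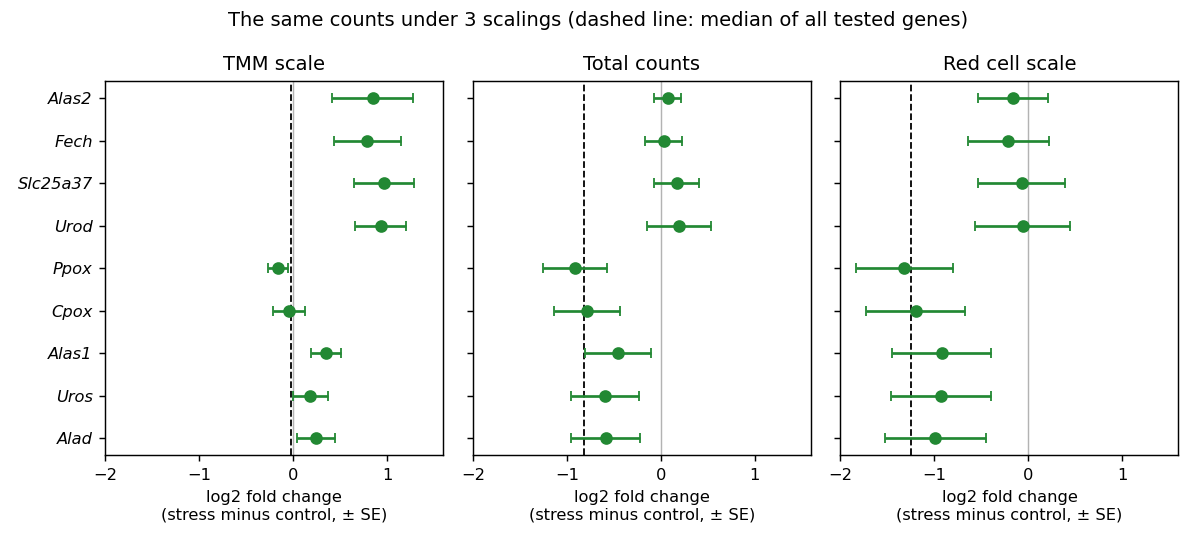
Log2 fold change of each member (stress minus control, horizontal axis, with its SE) on the TMM scale, on total counts and on the red cell scale; the dashed line is the median of all tested genes, at -0.02, -0.82 and -1.24. Alas2, Fech, Slc25a37 and Urod lie to the right of the dashed line in each panel, and Cpox and Ppox lie close to it.

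Levels were compared between members only as counts per kilobase of exon within a library. Alas2 made up 95.3 ± 0.240% of the 9 members' counts per kilobase in controls and 95.4 ± 0.371% after stress (SD, n = 4). Fech followed with 2.95 ± 0.195% and 2.86 ± 0.305%, Slc25a37 with 1.34 ± 0.102% and 1.43 ± 0.131%, and Urod with 0.193 ± 0.0124% and 0.210 ± 0.0271%. Each of these 4 exceeded the next member in 8 of 8 libraries.

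The remaining 5 members were far lower. Ppox had 0.0865 ± 0.0335% in controls and 0.0413 ± 0.0177% after stress, Alad 0.0386 ± 0.0158% and 0.0229 ± 0.00407%, and Cpox 0.0283 ± 0.00899% and 0.0148 ± 0.00541%. Uros had 0.0241 ± 0.00727% and 0.0147 ± 0.00507%, and Alas1, the lowest, 0.0192 ± 0.00981% and 0.0123 ± 0.00449%. Ppox exceeded Alad, and Alad exceeded Cpox, in 8 of 8 libraries. Cpox exceeded Uros in 6 of 8 libraries and Uros exceeded Alas1 in 7 of 8, and in each of these pairs the means differed by less than the SDs. These lengths are those of the basic transcripts of GENCODE M21. With the exons of all transcripts Alas2 stood at 96.8% in both groups, and Alas1 and Cpox were the lowest pair, with Alas1 above Cpox in 5 of 8 libraries.

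**Figure D3:**
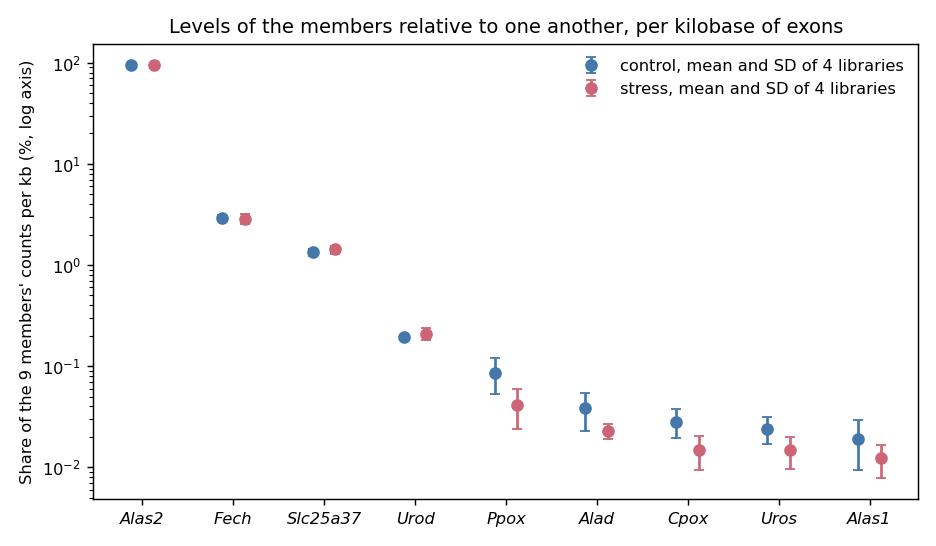
Share of the 9 members' counts per kilobase of exon taken by each member (vertical log axis, percent), as mean and SD of the 4 control and the 4 stress libraries. Alas2 stands above 95% in both groups, and the 5 lowest members stand below 0.1% each.

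A ratio of 2 genes within a library does not depend on the scaling. The ratio of Alas2 to Alas1 counts was 4104, 1961, 1636 and 4953 in control replicates 1 to 4 and 3852, 5268, 5688 and 2665 in stress replicates 1 to 4. The groups overlapped, and the mean log2 ratio was 11.47 ± 0.78 in controls and 12.03 ± 0.50 after stress (SD, n = 4). The difference of 0.56 did not pass (exact permutation test, two-sided, p = 0.257 and p = 0.257 after adjustment over 2 ratios), in a design whose smallest possible p is 0.0286. Slc25a37 was set against Slc25a28 (mitoferrin-2), the iron carrier of other cells. That ratio was 57.6, 39.1, 25.3 and 71.8 in control replicates 1 to 4 and 107.9, 131.1, 123.0 and 48.3 in stress replicates 1 to 4. The mean log2 ratio was 5.49 ± 0.66 and 6.58 ± 0.67 (SD, n = 4), with 3 of 4 stress libraries above every control. The difference of 1.09 did not pass (exact permutation test, two-sided, p = 0.0857 and p = 0.171 after adjustment over 2 ratios).

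Within the pathway the ratios of some members were nearly fixed. Alas2 was counted 8.16 to 10.3 times as often as Fech over the 8 libraries, 30.5 to 37.7 times as often as Slc25a37 and 532 to 717 times as often as Urod. Per 1000 haemoglobin counts there were 34.1 ± 3.95 Alas2 counts in controls and 31.2 ± 4.38 after stress (SD, n = 4), which differ by less than either SD. The SD of the log2 ratio over the 8 libraries was 0.123 to 0.231 (median 0.139) for the 6 pairs among Alas2, Fech, Slc25a37 and Urod. For the 10 pairs among Alas1, Alad, Uros, Cpox and Ppox it was 0.237 to 0.402 (median 0.361), and for the 20 pairs with 1 gene of each group 0.551 to 0.838 (median 0.685). This division of the members was made after these values were seen and was not tested. The 5 lower members had 65 to 724 counts in a library, and counting error enters their ratios.

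**Figure D4:**
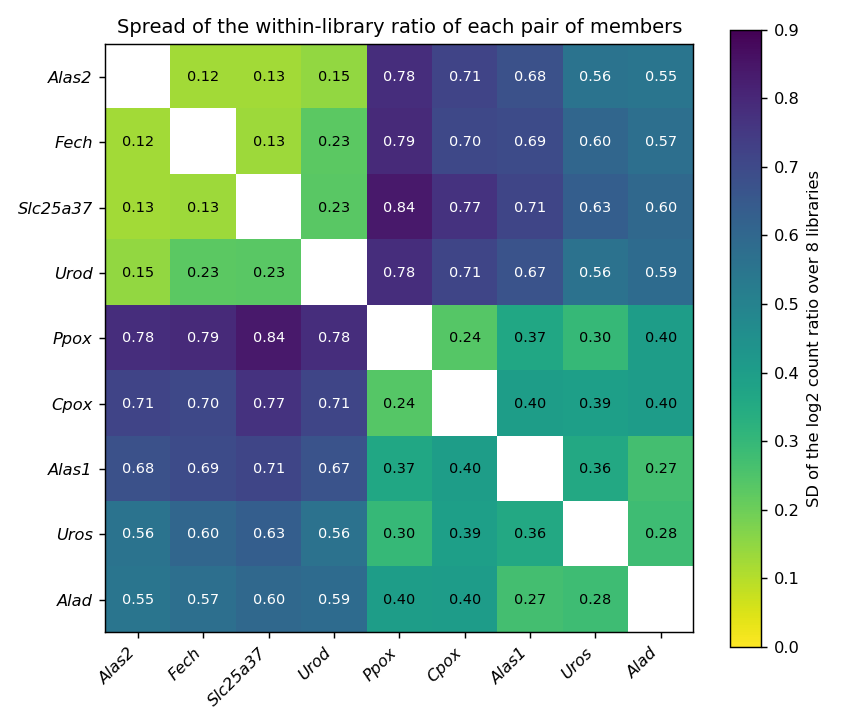
SD over the 8 libraries of the log2 ratio of counts for each pair of members (colour and printed value, 0 for a fixed ratio). The block of Alas2, Fech, Slc25a37 and Urod has values of 0.123 to 0.231, the block of the other 5 members 0.237 to 0.402, and pairs across the blocks 0.551 to 0.838.

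The same measure was taken between each member and the mean log2 count of the markers of a cell type, so that each marker weighed the same. Against the red cell markers the SD of the log2 ratio was 0.227 for Alas2, 0.188 for Fech, 0.253 for Slc25a37 and 0.227 for Urod, and against the B cell markers it was 0.933, 0.942, 0.982 and 0.946. Ppox had the reverse pattern, with 0.887 against red cells and 0.221 against B cells, and Cpox had 0.788 and 0.362. Against the T cell markers Ppox and Cpox had similar values of 0.265 and 0.354. Alas1, Alad and Uros varied least against the T cell markers, with 0.359, 0.340 and 0.271, and by 0.764, 0.685 and 0.699 against red cells. Against platelet markers the SD was 0.313 for Alas2, 0.393 for Fech, 0.355 for Slc25a37 and 0.243 for Urod. These spreads come from ratios within each of the 8 libraries, which do not depend on the scaling. They include the difference between the groups, and no test was made of them.

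The genes whose centred log2 CPM was most like that of Alas2 over the 8 libraries were Slc48a1, a heme transporter, with a root mean square difference of 0.0366, Adipor1 with 0.0579, March2 with 0.0604, Ube2b with 0.0631 and Cd24a with 0.0752. Fech ranked 43, Slc25a37 45 and Urod 68 among the tested genes by that measure, and Alas1 ranked 3232. For Alas1 the most alike were Med29 with 0.0878, Vps29 with 0.0928, Bin3 with 0.110, Ube2l3 with 0.113 and Ctsc with 0.117. By likeness to Alas1, Alad ranked 1115 and Alas2 10288.

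The other genes around the pathway were described by 6 lists with 53 tested genes, of which 13 rose and 0 fell on the TMM scale, where 10.4% of all tested genes rose. That 13 became 20 without control replicate 4 or stress replicate 4, and 7 or 8 without any other single library. Of these 13 genes, Hba-a2 alone also passed on total counts, and none passed on the red cell scale. The list medians of the mitochondrial, cluster assembly, iron supply and heme breakdown lists, all above 0 on the TMM scale, turned to -0.66, -0.69, -0.65 and -0.43 on total counts and to -1.04, -1.07, -1.08 and -0.85 on the red cell scale, where the medians of all tested genes were -0.82 and -1.24. Of 15 mitochondrial and porphyrin partners, 9 lay above 0 and 6 below (median 0.14 on the log2 scale). In this list Tspo, a porphyrin-binding protein of the outer mitochondrial membrane, rose from 34.1 to 44.7 CPM in the control libraries to 56.9 to 92.4 CPM in the stress libraries without overlap (log2 fold change 0.90 ± 0.15 SE, edgeR, adjusted p = 0.00249). Fam210b, a mitochondrial protein of erythroid differentiation, rose by 1.00 ± 0.30 (edgeR, adjusted p = 0.0438).

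Ferrochelatase carries an iron-sulphur cluster, and clusters also set the activity of an iron sensor that represses Alas2 translation. Of 12 genes for cluster assembly 9 lay above 0 and 3 below, with a median of 0.15. In this list 3 rose, namely the glutaredoxin Glrx5 (1.14 ± 0.34 SE), the scaffold Iscu (1.00 ± 0.30) and Bola3 (1.03 ± 0.31), which helps to deliver clusters (edgeR, adjusted p = 0.0458, 0.0463 and 0.0498). Their control and stress libraries overlapped, and 10.4% of all tested genes rose. Among 7 genes for iron supply, with a median of 0.12, Snx3, which recycles the transferrin receptor, rose by 0.92 ± 0.28 (edgeR, adjusted p = 0.0463). The receptor gene Tfrc was lower in every stress library than in any control library and did not pass (-0.21 ± 0.10 SE, edgeR, adjusted p = 0.180). Ncoa4, which sends ferritin to lysosomes, had 0.78 ± 0.28 and did not pass (edgeR, adjusted p = 0.0810).

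Heme sensing, export and breakdown was covered by 8 tested genes of 10, since Flvcr1 and Flvcr2 were not analysed here. All 8 lay above 0 on the TMM scale, with a median of 0.31, and 6 of 8 lay below 0 on the red cell scale. Hmox1 (heme oxygenase 1), the inducible enzyme of heme breakdown, stood at 2.42, 2.13, 2.23 and 2.74 CPM in control replicates 1 to 4 and at 5.04, 6.31, 5.46 and 4.74 CPM in stress replicates 1 to 4. The groups did not overlap, and Hmox1 rose by 1.18 ± 0.17 (SE; edgeR, adjusted p = 0.00107), also past the stricter threshold. Those values rest on 72 to 154 counts in a library. On the red cell scale Hmox1 lay at 0.02 ± 0.54 and did not pass (edgeR, adjusted p = 0.977). Blvrb, the biliverdin reductase of red cells, had 1.11 ± 0.35 and missed the threshold (edgeR, adjusted p = 0.0569).

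Of the 8 erythroid transcription factors, Klf1 had at most 21 counts in a library and was not tested. Of the other 7, 6 lay above 0 and 5 rose, with a median of 0.89, where 10.4% of all tested genes rose. Gata1 stood at 7.60 to 12.6 CPM in the control libraries and at 14.6 to 20.8 CPM in the stress libraries, and rose by 0.89 ± 0.16 (SE; edgeR, adjusted p = 0.00319). Tal1, Nfe2, Zfpm1 and Gfi1b rose by 0.95, 0.99, 0.58 and 1.10 (edgeR, adjusted p = 0.00132, 0.00242, 0.00970 and 0.00872). None of the 5 overlapped between groups, where 11.1% of all tested genes were higher in every stress library. These calls ended on the other scales, with Gata1 at 0.11 on total counts and -0.22 on the red cell scale (edgeR, adjusted p = 0.790 and 0.714), and Zfpm1 turned to -0.20 and -0.64. The list median was 0.11 and -0.22 there. All 5 are also expressed in megakaryocytes and platelets. The 6 platelet markers all rose on the TMM scale, where 10.4% of all tested genes rose. They went from sums of 1136 to 1723 CPM in the control libraries to 2546 to 3334 CPM in the stress libraries. Their calls ended on the other scales too, with a median of 0.23 on total counts and -0.10 on the red cell scale. The part of platelet RNA in the Gata1 values was not tested. The 4 adult haemoglobin genes all lay above 0, with a median of 1.07, and Hba-a2 rose by 1.37 ± 0.39 (SE; edgeR, adjusted p = 0.0346). Hbb-bt followed with 1.06 ± 0.49 and did not pass (edgeR, adjusted p = 0.161). Hba-a2 shares much of its sequence with Hba-a1 (1.03, edgeR, adjusted p = 0.243), and reads can be split between them.

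**Figure D5:**
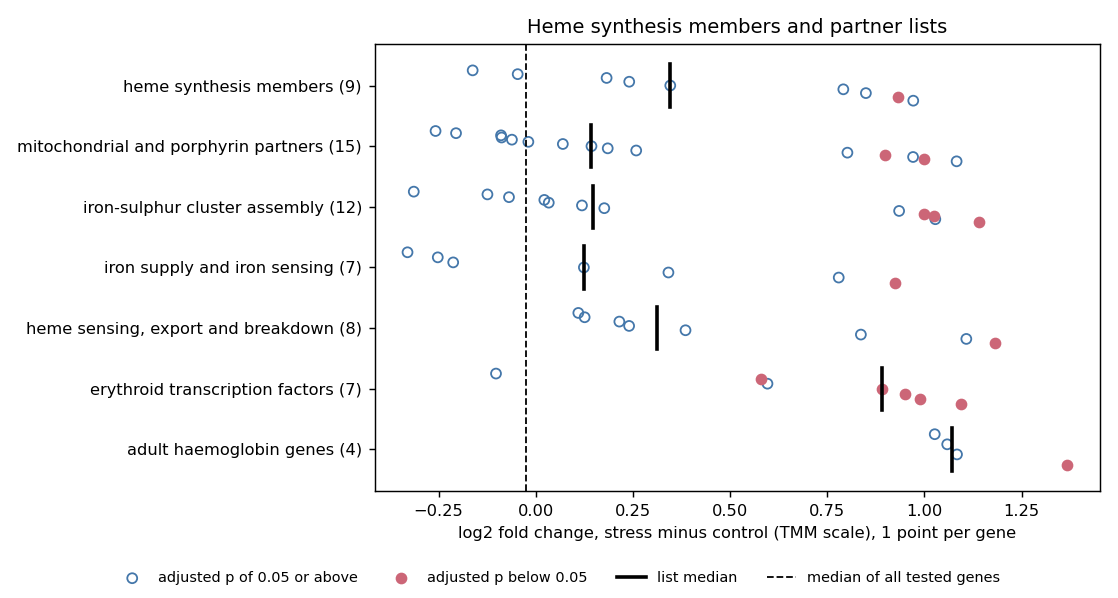
Log2 fold change (stress minus control, TMM scale, horizontal axis) of each gene of the pathway and of the 6 lists around it, with 1 point per gene, filled where the adjusted p was below 0.05; the thick bar is the list median and the dashed line the median of all tested genes. Several lists hold a set of genes close to 0 and a set close to 1, and 0 genes with an adjusted p below 0.05 lie below 0.

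Red cell markers lay above 0 on the TMM scale, as did Alas2, Fech, Slc25a37 and Urod. Markers of the other cell types differed in direction. Of 15 red cell markers 14 were tested (Ahsp was not analysed here), and all 14 lay above 0 (median 1.03 on the log2 scale). Of the 14, 0 passed an adjusted p below 0.05 (edgeR), where 10.4% of all tested genes rose. At an unadjusted p below 0.05 (edgeR) 11 were higher, against 18.2% of all tested genes. Their summed level was 10208, 6454, 3978 and 11577 CPM in control replicates 1 to 4 and 18044, 14079, 18605 and 10019 CPM in stress replicates 1 to 4. In that sum Bpgm alone had means of 5705 CPM in controls and 11144 CPM after stress. By that sum the 8 libraries stood in the same order as for Alas2, Fech and Slc25a37 on the TMM scale, whose factors all these values share. Stress replicate 4 lay among the controls. Erythroblast markers summed to 31.8 to 47.0 CPM in the control libraries and 46.4 to 60.0 CPM in the stress libraries. Of the 6 tested, 4 lay above 0 and 2, among them Tfrc, below (median 0.67). On the red cell scale all 6 lay below 0 (median -0.43).

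On the TMM scale neutrophil markers rose in 7 of 8 genes (median 1.49), from summed levels of 187 to 370 CPM in the control libraries to 575 to 844 CPM in the stress libraries. Of 6 monocyte markers 4 rose (Ly6c2, Lyz2, F13a1 and Ccr2, median of the 6 at 1.05). Of all tested genes 10.4% rose there. B cell markers lay below 0 in 5 of 5 genes (median -0.36), with sums of 689 to 859 CPM and 502 to 669 CPM. The 4 tested T cell markers of 5 had a median of 0.12 and 0 passed at either an adjusted or an unadjusted p below 0.05 (edgeR). On total counts and the red cell scale the medians were 0.73 and 0.40 for neutrophil and 0.26 and -0.24 for monocyte markers. For B cell markers they were -1.16 and -1.65, and for T cell markers -0.72 and -1.13. The medians of all tested genes were -0.82 and -1.24 there. How far the share of red cells in each library enters the values of the heme synthesis members was not tested. The red cell scale cannot decide it, since genes that vary with the red cell markers lie near 0 on that scale whatever the cause.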

How the data were processed

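Whole-blood RNA of 4 control and 4 stress samples was analysed from 1 deposited table of raw read counts per gene symbol, with no normalization by the authors. The submitters' processing notes name HISAT2, featureCounts and mm10. Which annotation and strand setting they used, and whether they filtered, is not given in the sources used here.

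Of 21878 symbols, 5948 had no count in any library. The 11718 genes that reached 10 counts in 4 or more samples were tested with edgeR 4.0.16 in R 4.3.3, using TMM factors, the robust quasi-likelihood test, all 8 samples in 1 fit without covariates and Benjamini-Hochberg adjustment over all tested genes. The lenient threshold was an adjusted p below 0.05, and the strict one added the study's absolute log2 fold change above 1 with an adjusted p below 0.01. The study used DESeq2, run here (1.42.0) as an alternative beside limma-voom (3.58.1), other scalings, other filters, a replicate block and leaving out each library. Ratios of counts took a pseudocount of 0.5 and an exact permutation test in scipy 1.17.1. Depth was 25978683 to 39014775 counts per library, so precision is limited by the number of libraries and, for Alas1, Alad, Uros, Cpox and Ppox, by counting error. The fit was tested on simulated data.

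All 9 members are named. Of each list around the pathway the 2 genes with the smallest p are named, with every gene past the lenient threshold where there are 5 or fewer, and of the genes most like Alas2 and Alas1 the first 5. Genes named outside that rule (Tfrc, Hba-a1 and the monocyte markers) were chosen after their values were seen. The members and lists were chosen with earlier results of these data known. Coordinates are from GENCODE M21 on GRCm38, and promoter windows from RefSeq on GRCm38.p6.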

Additional observations from a re-analysis of the deposited data

How the results depend on the processing

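The count of 1 member that rose on the TMM scale became 0 with no count filter, with 10 counts asked of all 8 samples, on total counts and on the red cell scale, 2 with DESeq2, limma-voom or total counts outside the haemoglobin genes, and 0 to 2 with a library left out. Among all tested genes, 9.57% rose with DESeq2, 1356 of 11718 with limma-voom and 549 of 11713 on total counts outside the haemoglobin genes. The count of members at the strict threshold became 0 to 1 with a library left out. Members that fell became 2 on total counts, 2 on the red cell scale and 1 on total counts outside the haemoglobin genes. On those scales 49.6%, 56.8% and 33.7% of all tested genes were lower. The 2 members that fell on the red cell scale became 0 to 5 with a library left out. The 13 genes of the lists that rose became 8 with no count filter, 8 with 10 counts in all 8 samples, 2 on total counts, 0 on the red cell scale and 7 to 20 with a library left out. The 2 past the strict threshold became 5 with DESeq2, 0 on each of total counts, total counts outside the haemoglobin genes and the red cell scale, and 1 to 8 with a library left out (1 without control replicate 2 or 3, 8 without control replicate 4). Of 53 tested genes of the lists, the 0 that fell became 14, 15 and 9 on total counts, the red cell scale and total counts outside the haemoglobin genes. The shares of all tested genes that were lower there were 49.6%, 56.8% and 33.7%. These scalings move the median of all genes, and the cause of the other changes was not tested.

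Log2 fold changes turned sign on the red cell scale for Alas2 (-0.16), Urod (-0.0581), Fech (-0.21) and Slc25a37 (-0.0711). For Alas1, Alad and Uros they turned to -0.92, -0.99 and -0.93 on the red cell scale, to -0.45, -0.58 and -0.59 on total counts and to -0.0668, -0.17 and -0.21 on total counts outside the haemoglobin genes. Cpox ranged from -0.14 to 0.10 with a library left out, turning to 0.10 without control replicate 4 and to 0.06 without stress replicate 3.

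Libraries of the same replicate number deviated from their group means with correlations of -0.16 to 0.0621, and those of other numbers with -0.0799 to 0.110, so that the numbers do not pair the samples. With the replicate block 0 members rose, 7 genes of the lists rose, and 0 members fell on the red cell scale, while the log2 ratio differences stayed at 0.56 (exact permutation within pairs, p = 0.5) and 1.09 (p = 0.250). Of 4 control libraries, 1 correlated best with its own number.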
